A study of Mus musculus with 20 samples.

Results

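The genes described here store, release, carry and burn fatty acids in cultured mouse macrophages. They were chosen by name, 10 in all: Plin2, Plin3, Pnpla2, Lpl, Angptl4, Fabp4, Fabp5, Cpt1a, Acsl1 and Pparg. Every probe whose annotation symbol, updated to current RefSeq symbols, was 1 of these names was taken. This gave 15 of the 45281 probes on the array, from 9 of the genes. Levels of Acsl1 were not analysed here. Of the 15 probes, 9 probes from 7 genes were bright enough to be tested.

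Macrophages were grown for 6 days from C57BL/6 bone marrow in medium with 40 ng/ml M-CSF, the growth factor that turns marrow precursors into macrophages. RNA of 20 samples was hybridised to Illumina mouse bead arrays, 5 arrays for each of 4 groups. The CD-cc group had 200 ug of cholesterol crystals for a fixed number of cells for 3 h and then 10 mM hydroxypropyl-beta-cyclodextrin for 6 h, from mice labelled 2 to 5 months old. The cc group had the crystals alone and the CD group the cyclodextrin alone, both with the same age label. The con group was untreated and labelled 10 to 15 months old, so treatment and age cannot be told apart in any comparison with it. Cyclodextrin is a ring of sugars that takes up cholesterol. The labels give no genotype for a sample, although the design text names LXR-deficient mice and wild-type littermates. Whether replicates came from separate mice or separate wells is also not given, and the p-values then cover only array-to-array spread, which may be technical.

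Lipid droplets are stores of triglyceride and cholesteryl ester wrapped in a single phospholipid layer and coated with perilipins. Fatty acids reach the cell from lipoproteins through lipoprotein lipase, travel inside it on fatty acid binding proteins, and are set free again from droplets by adipose triglyceride lipase. In macrophages the same stores fill when cells turn into foam cells, and PPAR-gamma, a receptor for fatty acid derivatives, is known to control many of these genes.

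The promoters of the 3 droplet genes are shown, because Plin2, Plin3 and Pnpla2 act on the same droplet. Any link between these sequences and the results below was not tested. Each is 250 bases before and 10 after the listed transcript start, 5' to 3' on the gene's strand, from RefSeq for GRCm38.p6. Capitals mark matches to AGGTCA, the half-site bound by PPAR and LXR partners, and to CACGTG, the E-box, both searched on either strand.
Plin2, chr4:86670050-86670309, minus strand: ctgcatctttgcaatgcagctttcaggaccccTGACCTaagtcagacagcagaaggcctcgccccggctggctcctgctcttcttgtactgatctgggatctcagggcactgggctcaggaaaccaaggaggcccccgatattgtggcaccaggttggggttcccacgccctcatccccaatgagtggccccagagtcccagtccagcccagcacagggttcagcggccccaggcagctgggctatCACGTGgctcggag
Plin3, chr17:56290502-56290761, minus strand: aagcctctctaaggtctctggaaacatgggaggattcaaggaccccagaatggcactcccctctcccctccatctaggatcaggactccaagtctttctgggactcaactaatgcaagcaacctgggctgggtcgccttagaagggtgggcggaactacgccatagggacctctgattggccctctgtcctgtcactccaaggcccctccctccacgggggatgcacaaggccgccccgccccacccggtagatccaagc
Pnpla2, chr7:141454938-141455197, plus strand: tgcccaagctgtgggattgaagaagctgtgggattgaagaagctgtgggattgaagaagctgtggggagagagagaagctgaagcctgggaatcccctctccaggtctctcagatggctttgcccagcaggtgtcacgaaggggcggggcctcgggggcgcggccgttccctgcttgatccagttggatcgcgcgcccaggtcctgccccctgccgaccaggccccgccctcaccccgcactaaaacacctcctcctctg
The Plin2 window held 1 half-site, 218 bases before the start, and 1 E-box, which begins 4 bases before the start. The start listed for Plin2 lies inside the annotated gene, chr4:86626910-86670217, so that E-box is within the gene. The starts listed for Plin3 and Pnpla2 are at the edges of their genes. Neither motif was found in the Plin3 and Pnpla2 windows. Over 32851 mouse promoter windows of the same length, 14.5% held AGGTCA and 6.34% held CACGTG. The tandem form AGGTCANAGGTCA, a PPAR element, was in 0.0335% of windows and in none of these 3. Of the other members with a listed window, Cpt1a had the half-site in its 1 window, Pparg in 2 of its 3 and Acsl1 in 0 of its 2.

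Median bead signal was between 86.6 and 128 per array, and between 33.9% and 39.5% of probes were detected. Precision is limited by having 5 arrays a group. The authors' own value table showed 5 sets of 4 arrays, 1 of each group, and values below are given in the order of sets 1 to 5. Sets 1 to 3 lay on chips 1 and 5, and sets 4 and 5 on the other 4 chips. The Y-linked transcript Eif2s3y read 4.19 to 4.54 on chips 1 and 5 and 10.17 to 10.90 on the others, so the chips and the sex pattern of the cells cannot be told apart. Of 12 macrophage markers, 10 had a probe and all 10 were detected. Their summed background-corrected signal was 44320 to 51821 in CD-cc, 42986 to 50744 in cc, 55919 to 60718 in CD and 50152 to 62779 in con. It was thus lower in every CD-cc array than in every CD array, and its part in the results below was not tested. Fewer cells of a type and less RNA per cell cannot be told apart in such bulk samples. Of 11 adipocyte markers, 9 had a probe. Lep, Lipe and Fasn were bright enough to be tested, while Plin1, Adig, Retn and Cidec were detected on no array. The summed signal of the 9 was 41.7 to 64.0 in CD-cc, 47.7 to 67.1 in cc, 47.4 to 76.7 in CD and 37.5 to 51.3 in con. Osteoclast markers, 7 of 7 with a probe, summed to 384 to 887 in CD-cc, 408 to 1135 in cc, 190 to 676 in CD and 227 to 763 in con, and these ranges overlap. All 7 stromal fibroblast markers were bright enough to be tested. Their sum was 480 to 2121 in CD-cc, 604 to 2242 in cc, 560 to 1568 in CD and 526 to 1977 in con. These ranges overlap too, and the part of such cells in the results below was not tested.

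After crystals, genes on both sides of fat handling moved. Plin3 and Fabp5 rose, and Angptl4 and Pnpla2 fell, both in cc against con and in CD-cc against CD. A probe was called at an adjusted p below 0.05 from a linear model (limma) over all 18348 probes tested. In cc against con 2 of the 9 member probes were called higher and 2 lower, where 6.85% and 6.89% of all tested probes were. In CD-cc against CD it was again 2 and 2, against 3.79% higher and 3.44% lower among all probes. The median of the 9 differences was -0.18 in cc against con and -0.06 in CD-cc against CD, where that over all probes was -0.01 in both. Over all probes 1257 were higher and 1264 lower in cc against con, but 592 and 328 with scale normalization. With the drug and crystals together, CD-cc against con, 2 were called higher and 4 lower, beside 7.8% and 8.83% of all probes. Of the 4 calls of CD-cc against CD, 0 were made with scale normalization, with the chip as a block, or in the 2 arrays a group of the chips other than 1 and 5.

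**Figure D1:**
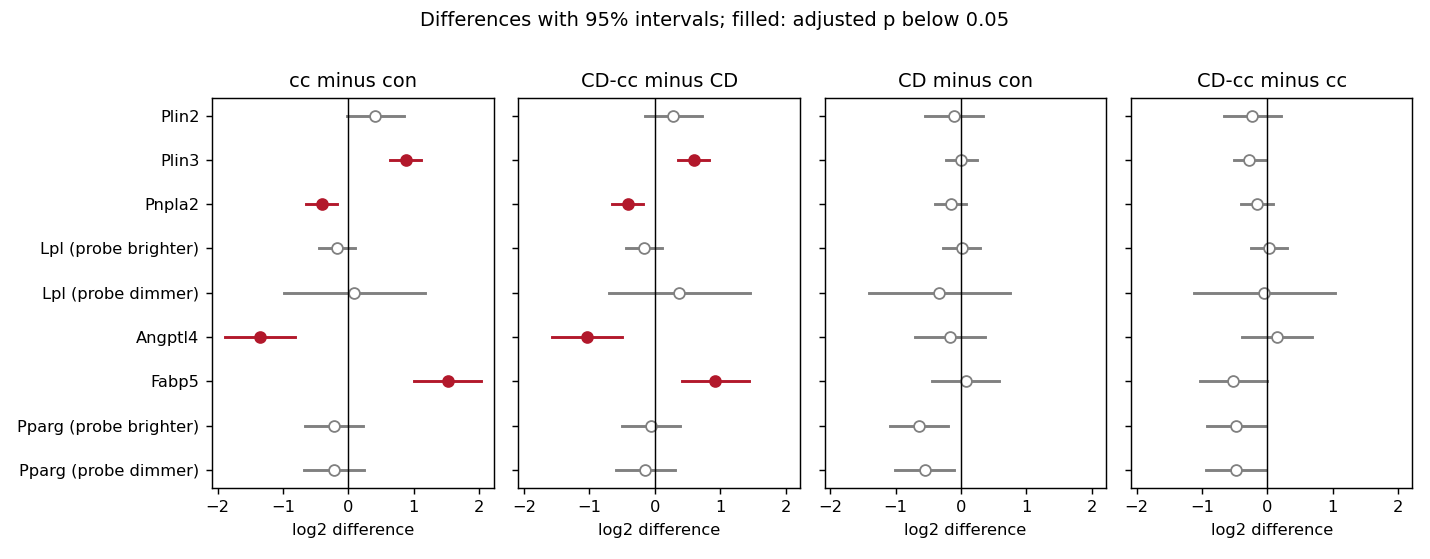
Log2 differences of the 9 tested probes (x axis) in 4 comparisons, with 95% intervals from the linear model. Filled points passed an adjusted p of 0.05: Plin3 and Fabp5 lie right of 0 and Pnpla2 and Angptl4 left of it in both comparisons with crystals added, and no point is filled in the panels for cyclodextrin added.

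Cyclodextrin gave no call among the members. In CD against con 0 of 9 were called by limma, beside 0.959% of all probes. Those were 137 higher and 39 lower, but 69 and 6 with scale normalization and 332 and 234 in the authors' table with blocked sets. At an unadjusted p below 0.05 there were 2 members, the pair of Pparg probes, and 1734 of all 18348 probes. In CD-cc against cc 0 of 9 were called, with 4 at an unadjusted p below 0.05, and here 0% of all probes were called, although 1410 had an unadjusted p below 0.05. These 4 were Plin3, Fabp5 and both Pparg probes, and each was lower in CD-cc. With the set as a block, 3.17% of all probes were called in CD against con and 1.06% in CD-cc against cc, and still 0 members in either. The members' median was -0.15 in CD against con and -0.23 in CD-cc against cc, where that over all probes was -0.01 in both. The interaction of crystals and cyclodextrin called 0.0763% of all probes and 0 members, with none at an unadjusted p below 0.05.

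**Figure D2:**
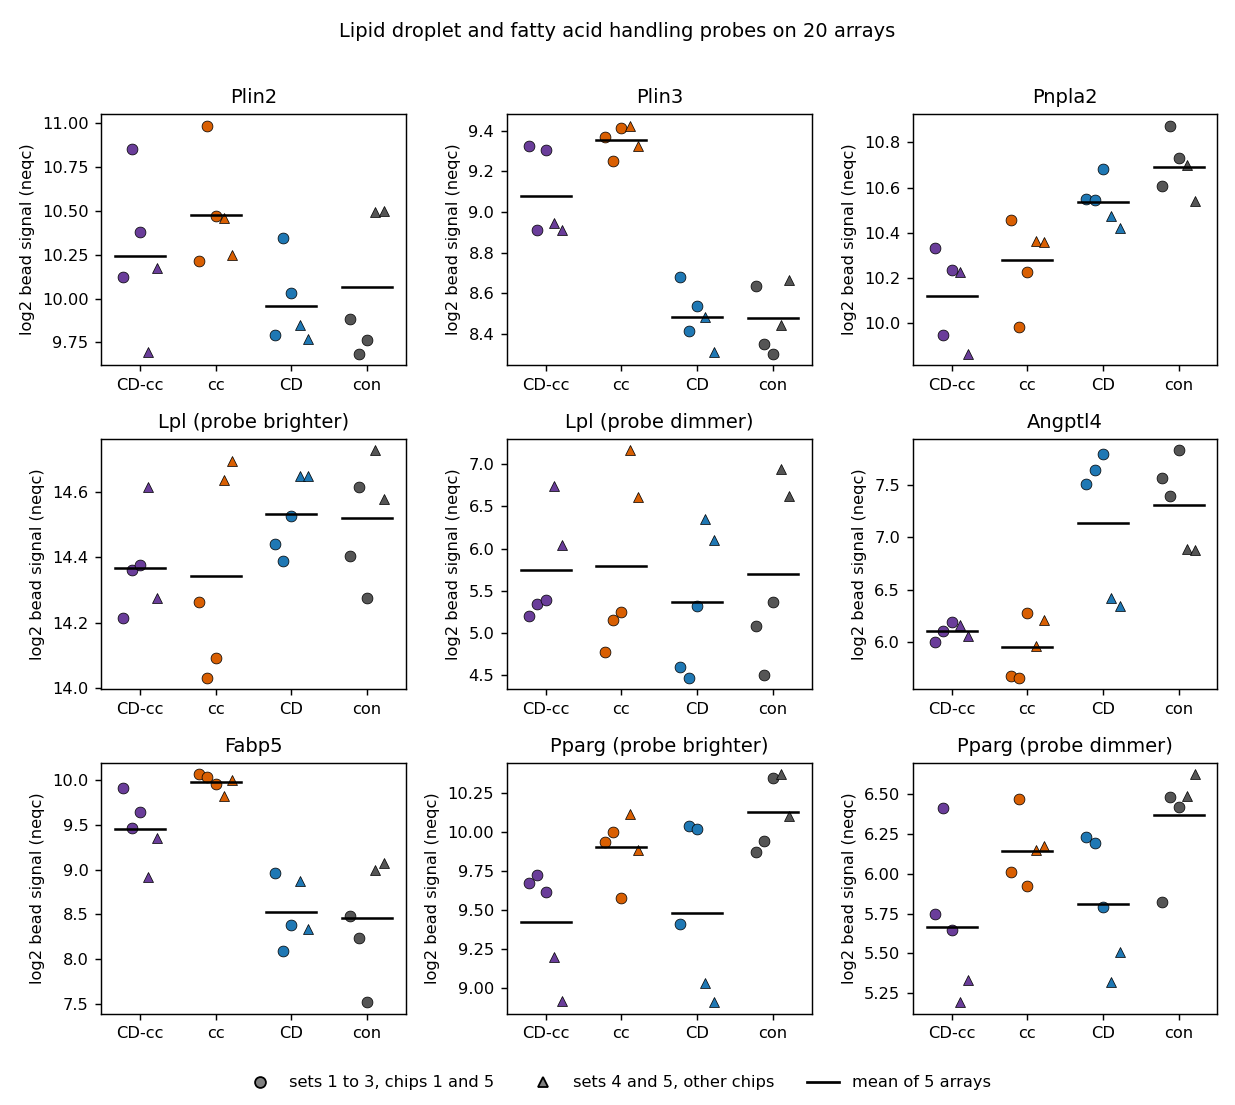
Log2 bead signal of the 9 tested probes (y axis, a scale of its own in each panel) on all 20 arrays, by group. Circles are sets 1 to 3 and triangles sets 4 and 5, with a line at the mean of 5 arrays. Plin3 is high in every CD-cc and cc array, and Angptl4 is low in every one of them.

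Plin3 coats newly forming droplets and also moves between droplets and cytosol. It read 9.33, 8.91, 9.30, 8.95 and 8.91 in CD-cc, 9.37, 9.25, 9.41, 9.43 and 9.33 in cc, 8.68, 8.42, 8.54, 8.48 and 8.31 in CD, and 8.64, 8.35, 8.30, 8.45 and 8.67 in con, all as log2 signal. Every array with crystals was above every array without them. The cc mean was 9.36 ± 0.07 and the con mean 8.48 ± 0.16 (SD, n = 5 each), a difference of 0.88 ± 0.11 (SE) on the log2 scale or 1.83-fold (limma, adjusted p = 4.2e-05). CD-cc averaged 9.08 ± 0.21 and CD 8.49 ± 0.14, a 1.51-fold difference (adjusted p = 0.00236), and CD-cc was 1.51-fold above con (adjusted p = 0.00113). The rise in cc was present in all 5 sets, from 0.66 to 1.11, and on both kinds of chip, at 0.91 for chips 1 and 5 and 0.82 elsewhere. In CD-cc against CD these were 0.64 and 0.53. In CD-cc against con they were 0.75 and 0.37, the latter not called (limma adjusted p = 0.169). That comparison was also not called with scale normalization (adjusted p = 0.0841). CD-cc lay below cc in all 5 sets, by a mean log2 difference of -0.28 (95% interval -0.51 to -0.04, limma adjusted p = 0.542), which was not called.

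Plin2, the perilipin that marks most droplets of macrophages, passed no comparison. Its log2 signal was 10.13, 10.85, 10.38, 9.69 and 10.17 in CD-cc, 10.21, 10.99, 10.47, 10.46 and 10.25 in cc, 9.79, 10.34, 10.03, 9.85 and 9.77 in CD, and 9.88, 9.69, 9.76, 10.50 and 10.50 in con. The con arrays fall into a low trio, sets 1 to 3, and a high pair, sets 4 and 5, and the groups overlap. The mean of cc was 10.48 ± 0.31 and that of con 10.07 ± 0.40 (SD, n = 5 each), 0.41 apart (95% interval -0.03 to 0.85, limma adjusted p = 0.223). Chips 1 and 5 alone, with 3 arrays a group, gave 0.78 (limma adjusted p = 0.0359), and the remaining chips gave -0.14 (adjusted p = 0.837). The test of that gap between chips gave an adjusted p of 0.502, or 0.168 when sets were blocked. CD-cc against CD gave 0.29 (95% interval -0.15 to 0.72).

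Pnpla2 encodes adipose triglyceride lipase, which takes the first fatty acid off a stored triglyceride. Its log2 signal was 10.33, 9.95, 10.23, 10.23 and 9.87 in CD-cc, 10.46, 9.99, 10.23, 10.37 and 10.36 in cc, 10.55, 10.54, 10.68, 10.48 and 10.42 in CD, and 10.61, 10.87, 10.73, 10.70 and 10.54 in con. No cc array reached a con array and no CD-cc array reached a CD array, although the highest cc array lay above the lowest CD array. The fall was 1.33-fold in cc against con (-0.41 ± 0.11, limma adjusted p = 0.0193) and 1.33-fold in CD-cc against CD (-0.41 ± 0.11, adjusted p = 0.0298). All 5 sets were lower in both. Chips 1 and 5 gave -0.51 and the remaining chips -0.26 in cc against con, and -0.42 and -0.40 in CD-cc against CD. CD-cc against con gave -0.57 ± 0.11 (limma adjusted p = 0.00181). These are small changes near the threshold: in cc against con the adjusted p was 0.0671 without cc replicate 1, 0.0582 without con replicate 5 and 0.402 with scale normalization. In CD-cc against CD it was 0.0604 to 0.0909 without CD-cc replicate 2 or 4 or CD replicate 2, 3 or 4, and 0.609 with the chip as a block.

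Lipoprotein lipase, which frees fatty acids from lipoprotein triglyceride outside the cell, was among the brightest signals on the array. Its brighter probe (ILMN_2692723) lay between 14.03 and 14.73 on all 20 arrays, at 57.4% to 89.5% of the highest signal of its array. The group means were 14.37 ± 0.15 in CD-cc, 14.34 ± 0.31 in cc, 14.53 ± 0.12 in CD and 14.52 ± 0.18 in con (SD, n = 5 each). The differences were -0.18 in cc against con (95% interval -0.46 to 0.10) and -0.16 in CD-cc against CD (95% interval -0.44 to 0.12), and neither passed. Compression of signals this close to the top of the scale was not tested. The dimmer probe (ILMN_2585447), from another transcript record, was detected on 17 arrays and varied with the set. It averaged 5.31 in CD-cc, 5.06 in cc, 4.80 in CD and 4.99 in con for chips 1 and 5, and 6.39 in CD-cc, 6.89 in cc, 6.23 in CD and 6.78 in con for the remaining chips. In each group sets 4 and 5 were above sets 1 to 3, and the groups overlapped.

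Angptl4, a secreted inhibitor of lipoprotein lipase and a known PPAR target, had 1 of its 2 probes detected. That probe read 6.00, 6.10, 6.20, 6.16 and 6.05 in CD-cc, 5.67, 5.66, 6.28, 5.97 and 6.21 in cc, 7.51, 7.64, 7.79, 6.42 and 6.34 in CD, and 7.56, 7.40, 7.84, 6.89 and 6.88 in con. Arrays with crystals were all below arrays without them, and the CD-cc values were the most alike. The cc mean was 5.96 ± 0.29 and the con mean 7.31 ± 0.42 (SD, n = 5 each), 2.56-fold lower in cc (-1.36 ± 0.26, limma adjusted p = 0.00137). CD-cc averaged 6.10 ± 0.08 and CD 7.14 ± 0.70, 2.05-fold lower in CD-cc (-1.04 ± 0.26, adjusted p = 0.0152). The offset in background correction shrinks changes of dim probes such as this one. All 5 sets fell in both comparisons, but by different amounts. In CD-cc against CD the difference was -1.55 on chips 1 and 5 (adjusted p = 0.000293), whereas the remaining chips gave -0.27 (adjusted p = 0.525). The gap between chips gave an adjusted p of 0.15, or 0.0164 when sets were blocked. The CD arrays of sets 4 and 5, at 6.42 and 6.34, are the ones that stand low. In this comparison the adjusted p was 0.056 without CD replicate 2 and 0.0511 without CD replicate 4. In cc against con the difference was -1.73 on chips 1 and 5 (adjusted p = 7.8e-05), whereas the remaining chips gave -0.80 (adjusted p = 0.0337). The second probe (ILMN_2424627) was detected on no array and lay between 4.16 and 4.62. CD-cc against con gave -1.21 ± 0.26 for the detected probe (adjusted p = 0.00268).

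Fabp5, a cytosolic fatty acid binding protein of macrophages and skin, showed the widest rise among the members after crystals. It read 9.91, 9.46, 9.64, 8.91 and 9.35 in CD-cc, 10.06, 10.03, 9.95, 9.82 and 10.00 in cc, 8.96, 8.09, 8.38, 8.87 and 8.33 in CD, and 8.48, 8.23, 7.52, 8.99 and 9.07 in con. The cc arrays form a narrow band above every con array. The set 4 array of CD-cc, at 8.91, lies below the highest CD and con arrays, so CD-cc overlaps both groups. The cc mean was 9.97 ± 0.10 and the con mean 8.46 ± 0.63 (SD, n = 5 each), a 2.86-fold rise (1.51 ± 0.24, limma adjusted p = 0.00036). CD-cc averaged 9.46 ± 0.37 and CD 8.53 ± 0.37, a 1.90-fold rise (0.93 ± 0.24, adjusted p = 0.0226). All 5 sets rose in both, by 0.82 to 2.43 in cc against con and by 0.04 to 1.38 in CD-cc against CD. In cc against con chips 1 and 5 gave 1.94 (adjusted p = 0.000318) and the remaining chips 0.88 (adjusted p = 0.0866), and in CD-cc against CD they gave 1.19 and 0.53. The adjusted p of CD-cc against CD was 0.0535 to 0.0697 without CD-cc replicate 1 or 3 or CD replicate 2 or 4. CD-cc against cc was -0.52 (95% interval -1.03 to -0.01, adjusted p = 0.64), lower in all 5 sets. CD-cc against con was 1.00 ± 0.24 (adjusted p = 0.00725), at 1.59 for chips 1 and 5 but 0.10 for the remaining chips. That gap had an adjusted p of 0.0979, or 0.0269 when sets were blocked. The second Fabp5 probe (ILMN_2685290) was detected on no array.

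Fabp4, the adipocyte and macrophage binding protein on the same chromosome as Fabp5, was detected on 3 arrays and was not tested. It read 4.85, 4.45, 4.28, 4.29 and 4.36 in CD-cc, 4.60, 4.83, 5.04, 4.36 and 4.43 in cc, 4.24, 4.21, 4.20, 4.43 and 4.46 in CD, and 4.28, 4.29, 4.23, 4.27 and 4.29 in con. The 3 detected arrays were 1 of CD-cc and 2 of cc. All values lie near the background, and no fold is given. Cpt1a, which loads long-chain fatty acids into mitochondria, was detected on 1 CD array, at 4.82, by 1 of its 2 probes and on no array by the other. A level of either gene below the detection limit of this array cannot be told from none.

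Pparg, the receptor named above, was called in CD-cc against con, where both tested probes fell. Its brighter probe (ILMN_1221060) read 9.67, 9.72, 9.61, 9.20 and 8.92 in CD-cc, 9.93, 10.00, 9.58, 10.11 and 9.89 in cc, 9.41, 10.04, 10.01, 9.04 and 8.91 in CD, and 9.87, 9.94, 10.34, 10.37 and 10.10 in con. Sets 4 and 5 of both cyclodextrin groups are the lowest 4 values, and every CD-cc array is below every con array. The CD-cc mean was 9.43 ± 0.35 and the con mean 10.12 ± 0.23 (SD, n = 5 each), 1.62-fold lower in CD-cc (-0.70 ± 0.21, limma adjusted p = 0.0268). The dimmer probe (ILMN_1221594) gave 5.67 ± 0.47 in CD-cc and 6.37 ± 0.31 in con, 1.63-fold lower (-0.70 ± 0.22, adjusted p = 0.0311), with overlapping groups. These calls were lost without any 1 of 4 arrays for the brighter probe (CD-cc replicate 4 or 5, con replicate 3 or 4, adjusted p 0.0608 to 0.0835). For the dimmer probe they were lost without any 1 of 7 (CD-cc replicate 3, 4 or 5, con replicate 2, 3, 4 or 5, adjusted p 0.0533 to 0.089). Of the alternatives run, 23 of 32 called the brighter probe and 19 of 31 the dimmer. Both calls were lost with scale normalization (adjusted p = 0.196 and 0.233), with the chip as a block (0.196 and 0.201) with no detection filter (0.0623 and 0.0738) and without the 3 arrays of lowest mean signal (0.0548 and 0.156). All 5 sets were lower for both probes, but by different amounts. The brighter probe differed by -0.38 on chips 1 and 5 (limma, adjusted p = 0.241) and by -1.17 on the remaining chips (adjusted p = 0.00278). For the dimmer probe these were -0.31 (adjusted p = 0.476) and -1.30 (adjusted p = 0.000727). The gap between chips had an adjusted p of 0.37 for the brighter probe and 0.315 for the dimmer, or 0.196 and 0.0732 when sets were blocked.

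In CD against con, the brighter probe differed by -0.64 (95% interval -1.08 to -0.20, adjusted p = 0.224, or 0.0884 when sets were blocked) and the dimmer by -0.56 (adjusted p = 0.353, or 0.129 when sets were blocked). On chips other than 1 and 5, which hold 2 arrays a group, the brighter probe fell by 1.26 in CD against con (limma, adjusted p = 0.00282) and by 0.94 in CD-cc against cc (adjusted p = 0.0185). The dimmer probe fell by 1.15 and 0.90 there (adjusted p = 0.00224 and 0.0112). On chips 1 and 5 the differences of the brighter probe were -0.23 in CD against con and -0.17 in CD-cc against cc, and neither passed. The gap between chips was not called: its adjusted p was 0.167 in CD against con (0.0791 with the block) and 0.456 in CD-cc against cc (0.246 with the block). Crystals alone left the brighter probe at -0.22 (95% interval -0.66 to 0.22). The remaining Pparg probe (ILMN_1221893) was detected on no array.

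**Figure D3:**
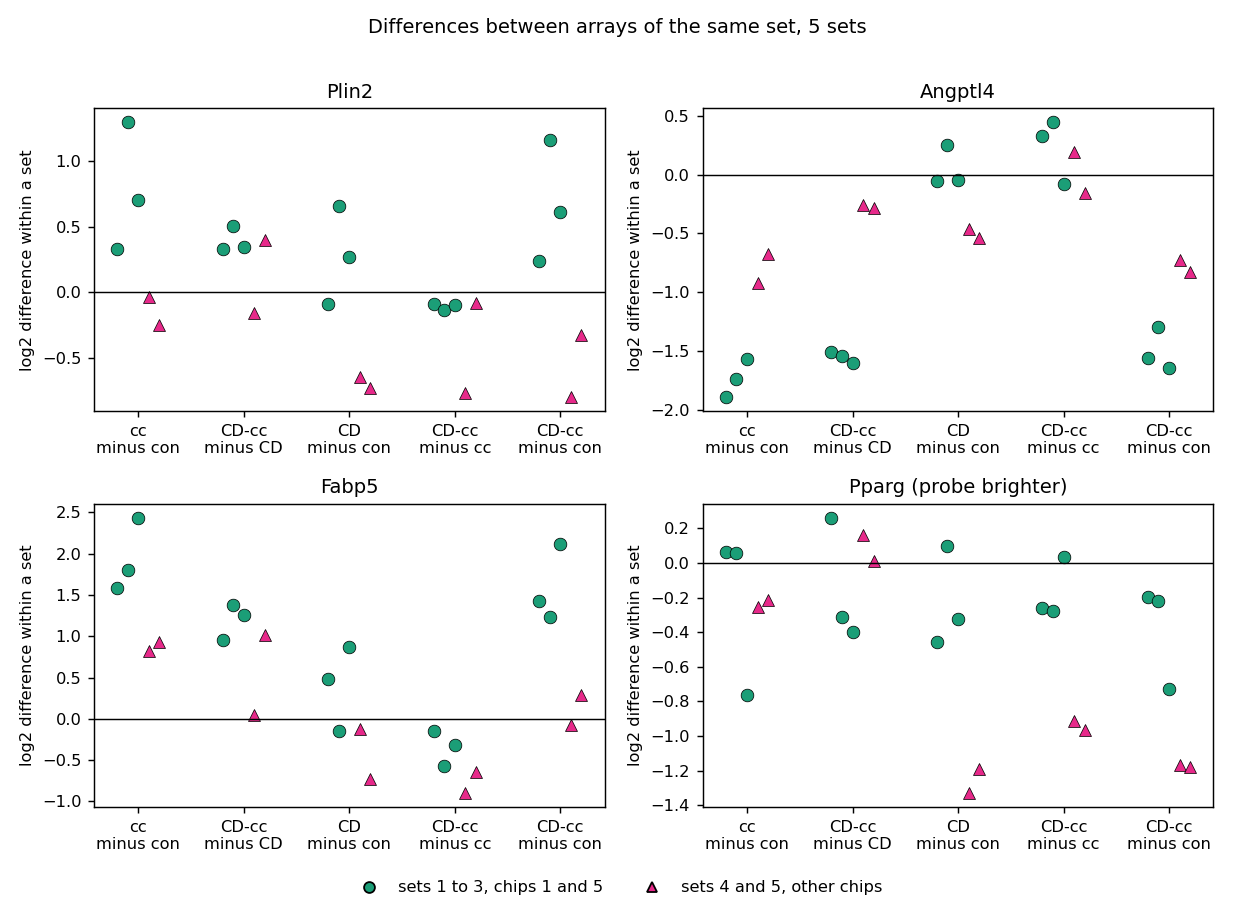
Log2 differences between 2 arrays of the same set (y axis) for Plin2, Angptl4, Fabp5 and the brighter Pparg probe in 5 comparisons. Circles are sets 1 to 3 and triangles sets 4 and 5. Angptl4 falls by -1.60 to -1.50 in the circles of CD-cc minus CD and by -0.29 and -0.26 in its triangles, and Pparg is lowest in the triangles where cyclodextrin was added.

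Other genes of the same pathway, grouped by what they do and each given by 1 probe, were read from the same fit. Of all 10018 genes so given, 7.73% were called higher and 8.15% lower in cc against con, and the median difference was -0.02. Droplet coat and droplet-bound genes, 10 tested of 18, had 2 higher and 0 lower with a median of 0.19. These were Pcyt1a, which makes phosphatidylcholine for the droplet surface (1.07 ± 0.23, adjusted p = 0.00363), and Hilpda, an inhibitor of adipose triglyceride lipase (0.86 ± 0.15, adjusted p = 0.000606). Lipases and their cofactors, 8 tested of 17, had 2 higher and 0 lower with a median of 0.06. Both act beside Pnpla2: Mgll cleaves the last fatty acid from glycerol (1.49 ± 0.37, adjusted p = 0.00915), and Abhd5 activates the Pnpla2 enzyme (0.54 ± 0.12, adjusted p = 0.00426). Mgll was detected on all 5 CD-cc and all 5 cc arrays, but on 2 of 5 CD and 3 of 5 con arrays, so its differences are set against groups partly at background. Triglyceride-making genes, 11 tested of 17, had 1 higher and 2 lower with a median of -0.23. Agpat5, an acyltransferase, rose by 0.48. Lpin2, a phosphatidate phosphatase, fell by 1.10, and Dgat1, which adds the last fatty acid, fell by 0.46.

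Uptake, carrier and activation genes, 12 tested of 20, had 2 higher and 1 lower in cc against con with a median of 0.06. Fabp3, a relative of Fabp5, rose 4.36-fold (2.12 ± 0.31, adjusted p = 0.000131), more than any member. Acbd3 rose by 0.53 and Dbi, the acyl-CoA binding protein, fell by 0.43. Fatty acid oxidation genes, 23 tested of 30, had 0 higher and 5 lower with a median of -0.17. Acot1, an acyl-CoA thioesterase and PPAR target, fell by 1.46 (adjusted p = 0.00148). Slc25a20, the mitochondrial carnitine carrier, fell by 0.64, Acaa2, a thiolase, by 0.58, Acadm, the medium-chain dehydrogenase, by 0.49 and Hsd17b4, named after its value was seen, by 0.48. PPAR and partner genes, 11 tested of 18, had 2 higher and 0 lower with a median of 0.14: the receptor Ppard (1.04 ± 0.20, adjusted p = 0.0017) and the coactivator Ppargc1b (1.09 ± 0.24, adjusted p = 0.00435). With sets blocked, cc against con had 4 coat, 2 lipase, 3 triglyceride-making, 4 carrier, 7 oxidation and 2 PPAR partner genes called either way. That fit called 4202 of all 18348 probes. All 17 genes called without the block kept their direction on both kinds of chip. For 13 of them the difference was over 1.5 times larger on chips 1 and 5. The calls that picked these genes used both kinds of chip, with 3 of 5 arrays a group on chips 1 and 5. Both counts are thus partly built in and carry no support. Hilpda rose by 1.19 there and by 0.38 on the remaining chips, Lpin2 gave -1.49 and -0.52, and Slc25a20 gave -0.91 and -0.23. The lowest adjusted p of the gap between chips over the 17 was 0.203.

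**Figure D4:**
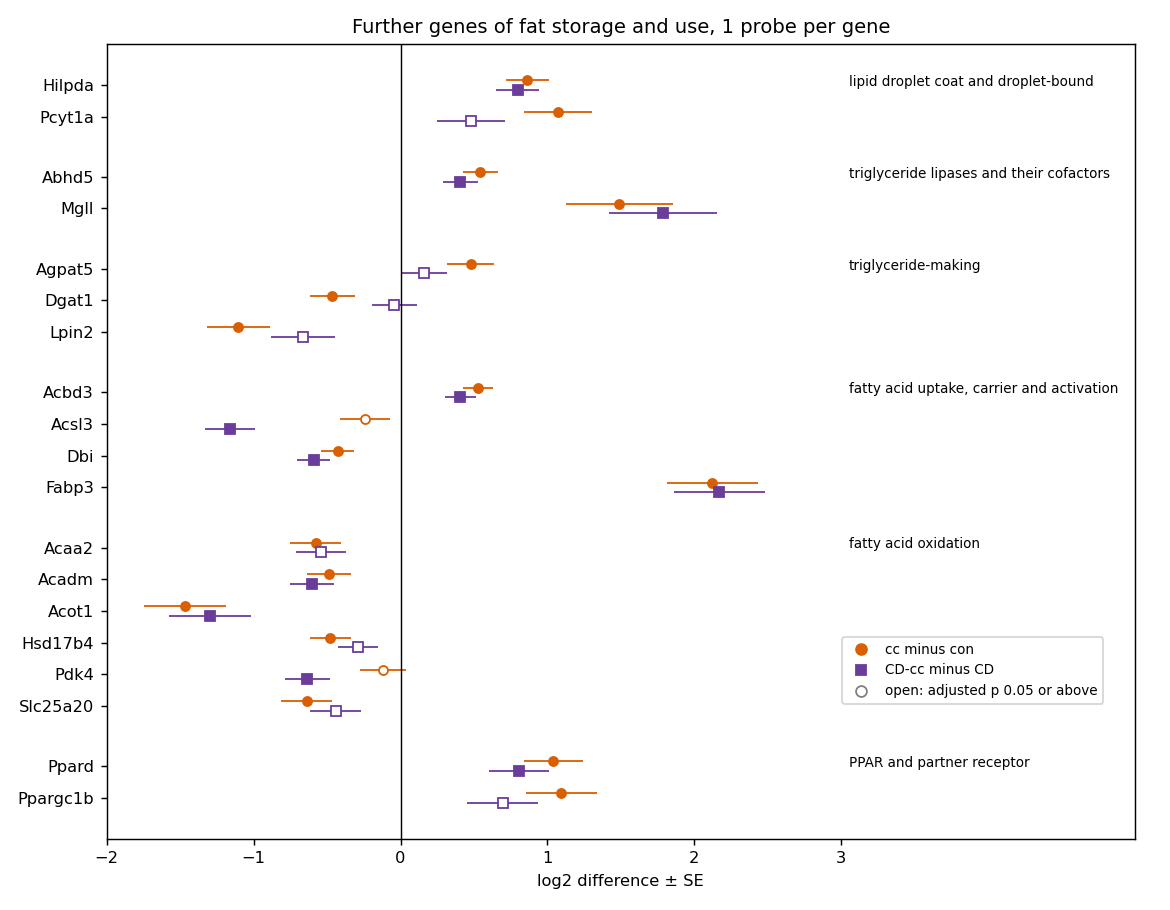
Log2 differences with SE (x axis) of the pathway genes called in cc against con (circles) or in CD-cc against CD (squares), grouped by role, with open symbols where the adjusted p was 0.05 or above. Fabp3 and Mgll lie farthest right, Mgll against groups in which 2 (CD) and 3 (con) of 5 arrays were detected, and Acot1, Lpin2 and Acsl3 farthest left.

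In CD-cc against CD, where 4.12% of genes were called higher and 4.13% lower, Hilpda was 1 of 10 in the coat list (0.80 ± 0.15, adjusted p = 0.0019), and Mgll (1.79 ± 0.37, adjusted p = 0.00434) and Abhd5 (0.41 ± 0.12, adjusted p = 0.0416) were 2 of 8 lipases. Of 11 triglyceride-making genes 0 were called by limma, with 1 at an unadjusted p below 0.05. Among 12 carriers and activators 2 were higher and 2 lower: Fabp3 rose 4.50-fold and Acbd3 by 0.41, while Acsl3, an acyl-CoA synthetase of forming droplets, fell by 1.16 (adjusted p = 0.000211) and Dbi by 0.59. Of 23 oxidation genes 0 were higher and 3 lower. Acot1 fell by 1.30 and Acadm by 0.60. The other, Pdk4, a kinase that spares glucose, was detected on 1 CD-cc and 4 CD arrays, and on 0 cc and 2 con arrays. It passed the detection filter mostly through arrays where it is high, so its call adds no support. Of 11 PPAR partners 1 was called, Ppard, which rose by 0.81 (adjusted p = 0.0167). With sets blocked, 2 coat, 2 lipase, 2 triglyceride-making, 5 carrier, 6 oxidation and 2 PPAR partner genes were called either way. That fit called 2691 of all 18348 probes. The 11 genes called without the block, Pdk4 included, all kept their direction on both kinds of chip. For 6 the difference was over 1.5 times larger on chips 1 and 5. These genes too were picked by calls over both kinds of chip, so neither count carries support. The lowest adjusted p of the gap over the 11 was 0.511. The medians of the lists, in the order just given, were 0.19, 0.06, 0.07, -0.05, -0.15 and 0.12, against -0.02 over all genes. In CD against con, where 1.04% of genes were called, 0 genes of these lists were called by limma, and 0 in CD-cc against cc. At an unadjusted p below 0.05, CD against con had 5 oxidation, 3 carrier, 2 triglyceride-making and 1 lipase genes. There CD-cc against cc had 3 oxidation, 3 carrier, 1 triglyceride-making and 1 PPAR partner. Of all 18348 probes, 1734 passed that limit in CD against con and 1410 in CD-cc against cc. With sets blocked, 1 triglyceride-making and 1 oxidation gene were called in CD against con, beside 3.17% of all probes. In CD-cc against cc 1 triglyceride-making gene was, beside 1.06%.

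Among the members, Fabp5 and Plin3 ran together over the 20 arrays after removal of set means (Pearson r = 0.943), and Angptl4 ran against both (r = -0.866 with Fabp5 and -0.849 with Plin3). These arrays share their treatments and sets, so r describes the pattern and carries no test. The gene most like Plin3 was Prss46 (r = 0.971) and then Degs1 (r = 0.962). Fabp5 was most like Prss46 (r = 0.976) and Tusc1 (r = 0.968). Angptl4 was most like Ccr3 (r = 0.976) and Sertad3 (r = 0.975), and Pnpla2 like Mtch1 (r = 0.968) and Zmynd8 (r = 0.966). Plin2 was most like Rhob (r = 0.913), Pparg like Stard8 (r = 0.93) and Lpl like Atp5j2 (r = 0.897). Each partner was picked for its high r after removal of set means. Without that removal, r of these pairs ran from 0.68 (Lpl with Atp5j2) to 0.97 (Angptl4 with Ccr3). It was 0.70 for Pnpla2 with Zmynd8.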

How the data were processed

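Bead arrays were read as the average bead signal per probe, an intensity on a linear scale without background subtraction, per the file headers. The deposited file also holds a detection p-value per probe and array. The authors also deposited a log2 value table. It was recomputed as quantile-normalised log2 signals with the means of 5 sets of 4 arrays removed, and differed by at most 0.0185. Its column medians were 6.71 to 6.72. The submitters' processing notes name Partek.

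In R 4.3.3 with limma 3.58.1, neqc (offset 16, controls inferred from detection p) gave log2 values. Probes with detection p below 0.05 on at least 5 of 20 arrays were tested, 18348 in all. A probe's gene came from the platform annotation, in which 34885 probes had 1 symbol, 18 several and 10378 none. Single symbols were replaced by the current RefSeq symbol of the same gene identifier where RefSeq listed it. A model of 4 groups on all arrays (lmFit, contrasts.fit, eBayes, two-sided) gave each difference, its SE and Benjamini-Hochberg adjusted p over all probes. The fit was tested on simulated data with changes planted in cc and independent noise on every array. The simulation held no sets or chips, so it cannot show how the fit treats the sets found here. Figures were drawn with matplotlib 3.10.9.

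Members and gene lists were chosen with earlier results of these data known. Named genes were all member probes, up to 4 called genes of each list with the largest change per comparison, and the 2 genes most like each member. Exceptions are named where they occur. A list gene was given by its probe of highest mean.

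Alternatives were no background correction, scale normalization, the authors' table with the set as a block, no or a stricter detection filter (p below 0.01 on 10 arrays), 1 probe per gene, chip, set or replicate number as a block, each kind of chip alone, and leaving out each array. Leaving out the 3 arrays of lowest mean signal was added after seeing the data. Replicate numbers did not pair the arrays: deviations of arrays with the same number correlated at a median of -0.20 over 30 pairs, against 0.53 for arrays of the same set.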

Additional observations from a re-analysis of the deposited data

Results flagged for a closer look

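Plin2 in CD-cc against con differed between chips by -1.24 on the log2 scale, at 0.67 for chips 1 and 5 but -0.56 for the remaining chips (adjusted p = 0.124, or 0.0277 when sets were blocked). Angptl4 in CD-cc against CD differed by 1.27, with -1.55 and -0.27 (adjusted p = 0.15, and 0.0164 with the block). Angptl4 in cc against con differed by 0.94, with -1.73 and -0.80 (adjusted p = 0.247, and 0.0493 with the block). Fabp5 in CD-cc against con differed by -1.49, with 1.59 and 0.10 (adjusted p = 0.0979, and 0.0269 with the block). These 4 passed with the set as a block and not without it, and chips and the sex pattern cannot be told apart. Without the block, the gap was called for 19 of all tested probes in cc against con and 7 in CD-cc against CD. In CD-cc against con it was called for 148. The count over all probes with the block is not given here, so whether these 4 stand out from other genes was not tested.

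In the dimmer Pparg probe, con replicate 1 stood low at 5.82, where the nearest con array was at 6.42 and the highest at 6.63. Of 36 groups of 5 arrays examined in this way, chance gives about 1 in 20 such gaps. Fabp4 was detected on 3 arrays and Cpt1a on 1 array, none of them untreated, and neither probe entered a comparison. A detection p below 0.05 is itself reached by about 1 in 20 background readings, so no link to treatment is drawn.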

How the results depend on the processing

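Of 1716 member values under alternatives, 1652 kept their direction and side of the threshold or were called in neither setting. The rest were 59 no longer called and 5 newly called. Among the 1652, 93 were called in neither setting and changed sign. Plin3 and Angptl4 in cc against con, and Angptl4 in CD-cc against con, were called under all alternatives run. Scale normalization gave 920 called probes in cc against con, 75 in CD against con, 369 in CD-cc against CD, 1208 in CD-cc against con and 1 in the interaction, and 0 and 1 member probes in CD-cc against CD and against con. The set as a block gave 4202, 582, 194 (CD-cc against cc), 2691, 4977 and 25, and with the authors' values instead 4344, 566, 194, 2878, 4989 and 28. The chip as a block gave 107 in CD against con, 308 (0 members) in CD-cc against CD, 1699 in CD-cc against con and 6 in the interaction. Without a detection filter there were 98 in CD against con and 9 in the interaction, and by 1 probe per gene 113, 2025 in CD-cc against con and 4 in the interaction. Chips 1 and 5 alone gave 69 in CD against con, 3 in CD-cc against cc and 0 in the interaction. The other chips alone gave 317 (2 members) in cc against con, 1027 (2) in CD against con, 650 (2) in CD-cc against cc, 274 (0) in CD-cc against CD, 1935 (3) in CD-cc against con and 1 in the interaction; they hold 2 arrays a group. Without the 3 dimmest arrays there were 40 in CD against con and 5 in the interaction.

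With the replicate block, CD-cc against cc had 1 called probe and Pnpla2 in CD-cc against CD had an adjusted p of 0.0512, and 3 of 20 arrays correlated best with their own number. Leaving out 1 array gave 67 to 196 called probes in CD against con, 0 to 18 in CD-cc against cc, 874 to 1624 in CD-cc against CD and 9 to 18 in the interaction, with 1 to 4 member probes in CD-cc against CD (1 without CD replicate 2 or 4), 3 to 4 in cc against con and 4 to 6 in CD-cc against con. In CD against con 67 to 110 were called without con replicate 2, 3, 4 or 5 or CD replicate 1 or 5, in CD-cc against cc 18 without CD-cc replicate 1, in CD-cc against CD 874 without CD replicate 2, and in the interaction 9 without con replicate 2, CD replicate 1 or 5, CD-cc replicate 4 or cc replicate 5. Causes were not tested.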
